A study of Mus musculus with 32 samples.

Results

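The RNAseq data on *Mtm1* knockout (KO) muscle hold 8 genes, most of them little studied in muscle, *Hsf2bp*, *Fam83g*, *Rassf7*, *Ttc9*, *Tiam2*, *Prune2*, *Gm28653* and *Sprr1a*. They were picked from the 54838 genes of the table because their levels in KO libraries were far above those of wild type (WT) at postnatal days 21 and 35 (P21 and P35). All 8 symbols were found in the table. Since the KO levels at P21 and P35 chose the genes, these levels are given below as a description without a test, and tests are given for P1 and P14, which did not take part in the choice.

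RNA came from skeletal muscle, the tibialis anterior by the methods, of mice on a C57BL6/J background. WT littermates were compared with *Mtm1* KO mice, in which exon 4 of *Mtm1* is deleted, at P1, P14, P21 and P35 (n=4 libraries per genotype and age, 32 in all). *Mtm1* encodes myotubularin, a lipid phosphatase whose loss causes X-linked myotubular myopathy. Nothing in the labels says how the libraries relate to animals, so *P*-values measure the spread between these libraries.

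Library totals ranged from 49321035 to 85631408 counts. Levels are given as CPM, counts scaled to TMM-adjusted library totals, on a single scale for all 32 libraries, and the same values per kilobase of exon (RPKM) where genes are compared with each other. *Mtm1* itself averaged 5.51 ± 0.344 CPM (SD, n=4) in WT and 2.77 ± 0.764 CPM in KO at P1, where its log2 fold change of -0.98 missed the threshold (edgeR, adjusted *P*=0.0668), and 20.6 to 22.1 CPM in WT against 3.14 to 4.07 CPM in KO at the 3 later ages. Summed CPM of 8 myofibre markers was 15930 to 33160 at P1 and 86590 to 218400 later, with the lowest later values in KO at P35. At P1, 13 keratinocyte markers summed to 1950 to 7039 CPM, against 8.04 to 45.6 CPM at the later ages. At P35 the adipocyte genes *Adipoq*, *Plin1* and *Lep* rose in KO and the endothelial genes *Cdh5* and *Tek*, the pericyte gene *Rgs5* and the myofibre gene *Acta1* fell, the satellite cell genes *Pax7*, *Calcr* and *Chrdl2* fell at P21 and P35, and 0 genes of the neutrophil, lymphocyte, neuron and fibroblast lists passed the threshold given below, where 3 fibroblast and 1 neuron genes had an unadjusted *P*-value under 0.05 at P35. Of 8 Schwann cell markers at P35, all 8 had an unadjusted *P*-value under 0.05 with the higher level in KO, *Ngfr* alone was called, and the summed CPM was 239 to 982 in KO and 58.9 to 455 in WT, with overlapping libraries. At P21, 5 of 6 fibroblast markers had an unadjusted *P*-value under 0.05 (edgeR, lowest adjusted *P*=0.0433). The median log2 fold change of that list was 0.37, against 0.008 over all genes. The part of these cell types in the results was not tested. In whole muscle, a change in the number of cells of a type and a change in RNA per cell cannot be told apart.

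The 8 genes belong to unrelated families. *Hsf2bp* encodes a partner of BRCA2 known from meiotic recombination in germ cells. *Fam83g* encodes PAWS1, a scaffold for casein kinase 1 studied in skin and hair, *Rassf7* a member of the N-terminal group of RAS-association domain proteins, and *Ttc9* a tetratricopeptide repeat protein. *Tiam2* encodes a guanine nucleotide exchange factor that loads the small GTPase RAC and is best known from neurons, and *Prune2* a large protein with a BCH domain found in neural tissue. *Gm28653* is a long noncoding RNA at the locus of linc-MD1, a regulator of myoblast differentiation, and *Sprr1a* encodes a precursor of the cornified envelope of skin that is also switched on in injured neurons.

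Parts of the course across the ages were shared. In WT muscle 7 of the 8 genes fell past the threshold given below between P1 and P14, the exception being *Ttc9*. Over all 17435 genes tested, 30.4% did so. *Prune2* then rose again in WT, from a mean of 4.03 CPM at P14 to 10.7 CPM at P35. In KO muscle at P21 the libraries of all 8 genes lay above those of WT with no overlap, and at P35 those of 7 did so, all but *Prune2*. Without a test being read from it, 8 of 8 genes at P21 and 7 of 8 at P35 were above the call threshold used throughout, an adjusted *P*-value under 0.01 with a change of over 1.5-fold, which 3.18% of the 15179 genes tested at P21 and 8.49% of the 15595 tested at P35 passed in the direction of KO. The corresponding shares of all genes whose KO libraries lay wholly above WT were 13.7% and 19.2%. The genes were chosen for their rises at these ages, so neither these counts nor the lack of overlap is support for them.

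**Figure D1:**
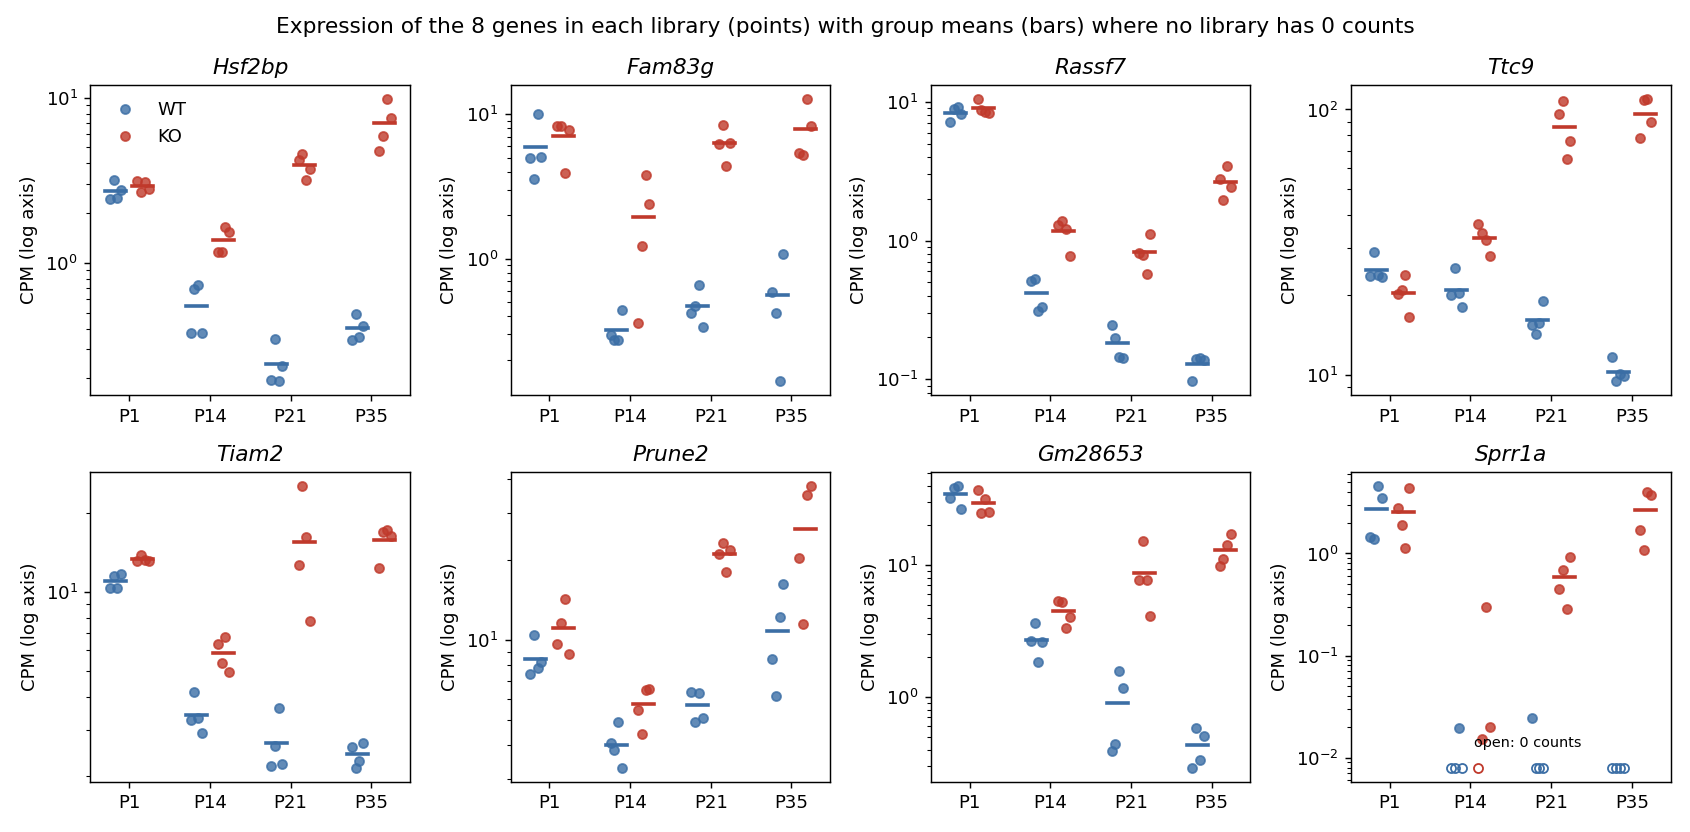
CPM (log axis) of each of the 8 genes in every WT and KO library at P1, P14, P21 and P35, with points for libraries, bars for group means of n=4 where no library has 0 counts, and open points for libraries with 0 counts. In all 8 panels the KO points of P21 lie above the WT points, whereas at P1 only those of *Tiam2* are separate.

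*Hsf2bp* (chr17:31944769-32036349, minus strand, GRCm38) had 2.42, 3.18, 2.49 and 2.76 CPM in the WT libraries of P1 and 3.14, 2.68, 3.08 and 2.79 CPM in those of KO. WT muscle then held 0.374, 0.692, 0.737 and 0.376 CPM at P14, and 0.193 to 0.344 CPM at P21 and 0.341 to 0.491 CPM at P35. KO muscle held 1.16, 1.17, 1.64 and 1.55 CPM at P14, 4.17, 4.56, 3.18 and 3.69 CPM at P21, and 4.78, 5.86, 9.80 and 7.52 CPM at P35. The genotypes overlapped at P1 and were apart at each later age, and each KO group of P21 and P35 lay above the group before it. The ratio of mean CPM, KO over WT, was 2.53 at P14, 16 at P21 and 17.4 at P35, and the mean of KO at P35 was 2.58 times that of WT at P1. *Hsf2bp* was thus higher in diseased muscle at P35 than in neonatal muscle of either genotype, with no overlap of libraries.

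No such difference was called among the known partners of *Hsf2bp*. Of 11 genes of the HSF2BP and BRCA2 recombination list, 7 were tested at P21 and 8 at P35, and 0 passed the threshold at either age by edgeR, with 2 and 4 at an unadjusted *P*-value under 0.05. *Brca2* averaged 2.90 ± 0.429 CPM in WT against 1.56 ± 0.422 CPM in KO at P21 (log2 fold change -0.89, adjusted *P*=0.0145), and *Mnd1*, which acts with DMC1 in strand exchange, had a log2 fold change of 1.11 at P35 (adjusted *P*=0.0111). *Hsf2*, the heat shock factor gene that gave *Hsf2bp* its name, had log2 fold changes of 0.39 and 0.30 (adjusted *P*=0.0241 and 0.0126). Markers of meiotic germ cells summed to between 0.396 and 4.63 CPM over 9 genes in all groups, and *Sycp1*, a core protein of the synaptonemal complex, had 0 counts in every library except in KO at P1. In KO at P35, where *Hsf2bp* was highest, that sum was 1.10 to 1.73 CPM, against 0.945 to 1.57 CPM in WT. Exons of *Hsf2bp* and *Rrp1b* share 54 bases on opposite strands. *Rrp1b*, a nucleolar protein gene, was at 7.09 to 14.1 CPM in the group means and was not called at any age.

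*Fam83g* (chr11:61684091-61709951, plus strand) varied widely within groups. Its P1 levels were 4.96, 3.54, 10.1 and 5.03 CPM in WT against 8.35, 8.34, 3.92 and 7.84 CPM in KO. In WT it was at 0.272 to 0.439 CPM at P14, 0.334 to 0.652 CPM at P21 and 0.142 to 1.08 CPM at P35. KO libraries of P14 held 0.360, 1.23, 3.80 and 2.38 CPM, the first of which lay within the WT range. At P21 they held 6.25, 8.41, 4.41 and 6.36 CPM, and at P35 5.41, 5.21, 12.8 and 8.36 CPM, all above every WT library of the same age. The ratio of means was 13.6 at P21 and 14.2 at P35, and the KO mean of P35 was 1.34 times the WT mean of P1, with overlapping libraries. *Slc5a10*, which shares 393 exon bases with *Fam83g* on the other strand, was at most at 0.0465 CPM in any group mean.

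Among the other FAM83 genes, which share the domain that binds casein kinase 1, *Fam83h* rose in KO from 0.420 ± 0.0820 to 1.16 ± 0.195 CPM at P21 (log2 fold change 1.47, SE 0.212, adjusted *P*=0.00203) and from 0.403 ± 0.112 to 2.30 ± 0.173 CPM at P35 (2.53, SE 0.224, adjusted *P*=0.000102). It was the only gene called of 4 tested at P21 and 3 tested at P35, where *Fam83f* had a log2 fold change of 1.18 (adjusted *P*=0.0185) and *Fam83d* of -1.12 (adjusted *P*=0.0327). Of 12 casein kinase 1, SMAD and ID genes, which include the SMAD1 partner of PAWS1 and targets of BMP signalling, *Smad9* rose at P21 (log2 fold change 1.26) and *Id1*, *Id2* and *Id3* rose at P35 (0.81, 1.36 and 0.76). *Smad4*, the shared partner of the SMADs, had -0.47 at P35 (adjusted *P*=0.00129), a change under 1.5-fold. *Smad6* had 0.55 at P21 (edgeR, adjusted *P*=0.00656), also under 1.5-fold. Median log2 fold changes of these 12 genes were 0.18 and 0.03, against 0.008 and 0.035 over all genes.

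*Rassf7* (chr7:141215860-141218658, plus strand) stayed below its neonatal level in every later library. At P1 it was at 7.13, 8.93, 9.21 and 8.22 CPM in WT against 10.5, 8.78, 8.54 and 8.38 CPM in KO. WT libraries had 0.514, 0.528, 0.310 and 0.334 CPM at P14, 0.143 to 0.246 CPM at P21 and 0.0973 to 0.142 CPM at P35. The P21 group lay below that of P14. The lowest WT library of P21 and the highest of P35 both had 6 counts, so these groups are not told apart. KO libraries had 1.29, 1.38, 1.22 and 0.773 CPM at P14, 0.816, 0.791, 0.575 and 1.11 CPM at P21, and 2.79, 1.96, 3.43 and 2.44 CPM at P35. KO and WT did not overlap at P14, P21 or P35, and the ratio of means was 2.77, 4.51 and 20.5. The KO groups of P14 and P21 overlapped with each other and lay below that of P35, whose mean was 0.317 of the WT mean at P1. WT libraries of P35 rested on 4 to 6 counts.

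Among the other RASSF genes, none of 8 tested was called at P21, with 1 at an unadjusted *P*-value under 0.05, and at P35 only *Rassf4* rose (log2 fold change 0.72, SE 0.142, adjusted *P*=0.00335). The median of the list was 0.06 at P21 and -0.06 at P35. *Rassf8* and *Rassf10*, which like *Rassf7* carry the RAS-association domain at the N-terminus, had log2 fold changes of -0.22 and 0.009 at P21 and -0.40 and -0.25 at P35, and neither was called. *Rassf9*, of the same group, had -0.28 at P21 and was not called (edgeR, adjusted *P*=0.536). *Rassf5* had 0.91 at P35 (adjusted *P*=0.014).

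*Ttc9* (chr12:81631249-81667557, plus strand) was the most abundant of the 8 genes per length after P1. Its P1 levels were 23.5, 28.9, 23.8 and 23.4 CPM in WT against 20.1, 20.9, 23.7 and 16.5 CPM in KO. WT held 18.0 to 25.2 CPM at P14, 14.3 to 19.0 CPM at P21 and 9.48 to 11.6 CPM at P35. KO libraries had 37.0, 34.1, 32.1 and 27.9 CPM at P14, 96.3, 108, 65.3 and 75.7 CPM at P21, and 78.1, 108, 109 and 89.7 CPM at P35. The genotypes did not overlap from P14 on, and the KO groups of P21 and P35 overlapped with each other. Ratios of means were 1.57, 5.35 and 9.40 at the 3 ages, and the KO mean of P35 was 3.87 times the WT mean of P1. At P35 in KO, *Ttc9* stood at 20.2 ± 3.18 RPKM, whereas the other 7 genes lay between 1.19 and 3.28 RPKM in group mean. *Ttc9c*, the other tested gene of its family, had log2 fold changes of -0.03 and -0.02 at P21 and P35.

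*Tiam2* (chr17:3326573-3531344, plus strand) had 10.4, 11.5, 10.3 and 11.7 CPM in WT against 13.1, 13.9, 13.2 and 13.2 CPM in KO at P1, which was the only non-overlap among the 8 genes at that age. At P14 the libraries held 3.26, 4.19, 3.32 and 2.93 CPM in WT against 6.33, 5.39, 6.74 and 4.96 CPM in KO. WT stayed at 2.19 to 3.62 CPM at P21 and 2.15 to 2.68 CPM at P35, whereas KO held 12.7, 25.3, 16.2 and 7.76 CPM at P21 and 12.3, 16.9, 17.3 and 16.3 CPM at P35. All KO libraries lay above all WT libraries of their age. Ratios of means were 1.71, 5.83 and 6.49, and KO at P35 was 1.43 times WT at P1 without overlap. *Tiam2* shares 142 exon bases with *Tfb1m* on the other strand, a mitochondrial transcription factor gene with group means of 5.0 to 7.37 CPM that was not called at any age.

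The paralogue *Tiam1* was lower in KO. It averaged 8.38 ± 0.969 CPM in WT against 4.81 ± 1.22 CPM in KO at P21 (log2 fold change -0.79, SE 0.174, adjusted *P*=0.0124), and fell from 9.64 ± 2.80 to 3.54 ± 0.938 CPM at P35 (-1.42, SE 0.247, adjusted *P*=0.00181). Of the 13 RAC genes and regulators, 0 were called at P21, with 4 at an unadjusted *P*-value under 0.05. At P35 *Rac2*, *Vav1* and *Pak1* rose (log2 fold changes 1.06, 1.13 and 0.88), *Tiam1* fell, and *Rac1*, the main RAC gene of muscle, had a log2 fold change of 0.03. *Rac2* and *Vav1* are typical of blood cells, and the summed CPM of 8 macrophage markers was 138 to 206 in KO and 107 to 135 in WT at P35, with *Cd68*, *C1qa*, *C1qb* and *Lyz2* called higher. The part of macrophages in the *Rac2* and *Vav1* values was not tested.

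*Prune2* (chr19:16956118-17223932, plus strand) was the only gene whose genotypes overlapped again at P35. Its levels at P1 were 7.41 to 10.4 CPM in WT against 8.83 to 14.3 CPM in KO, and at P14 they were 4.07, 3.84, 4.91 and 3.30 CPM in WT against 5.42, 4.40, 6.44 and 6.54 CPM in KO. At P21 WT had 6.36, 4.89, 6.30 and 5.06 CPM and KO 21.0, 23.1, 17.9 and 21.8 CPM, with tight groups and a ratio of means of 3.71. At P35 WT had 8.42, 6.16, 12.2 and 16.1 CPM and KO 20.2, 11.4, 34.9 and 37.9 CPM. The second KO library lay within the WT range at P35, and the ratio of means was 2.43. In the PRUNE and BCH domain list, *Prune1* rose at P21 (log2 fold change 0.60, SE 0.0810, adjusted *P*=0.00160) and had 0.22 at P35, while *Bnip2* and *Arhgap1*, the other 2 tested, had values between -0.11 and 0.01.

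**Figure D2:**
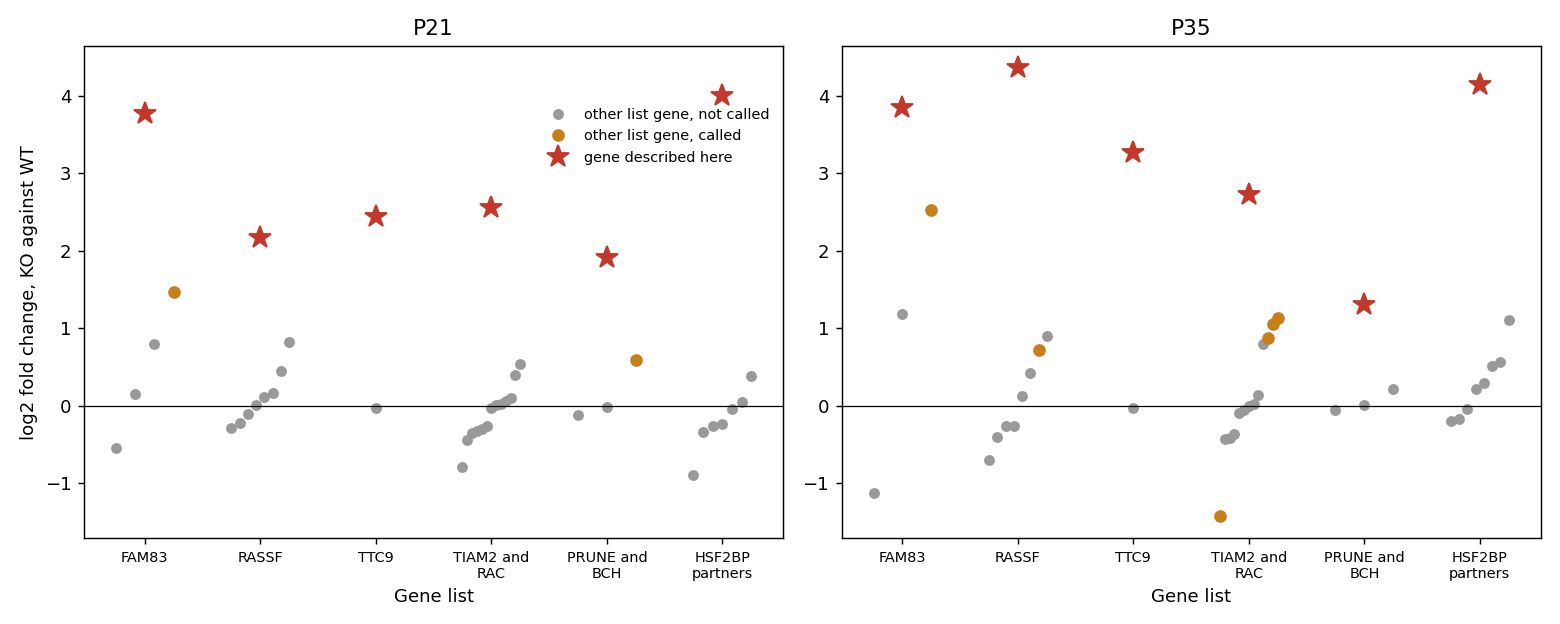
Fitted log2 fold change of KO against WT (y axis) at P21 (left) and P35 (right) for the genes of 6 lists (x axis), with stars for the genes described here, orange points for other list genes past the threshold and grey points for those not past it. Each star lies above every other gene of its list at both ages, for example *Ttc9* at 3.26 against *Ttc9c* at -0.02 at P35, and *Tiam1* is the only orange point below 0.

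*Gm28653* is annotated as a long intergenic noncoding RNA (chr1:20669882-20684298, plus strand, GRCm38). RefSeq lists the linc-MD1 gene *Lincmd1* from the same first base to chr1:20682958. The region also holds 2 muscle microRNAs on the same strand, miR-206, which is known to be induced by denervation, and miR-133b, and 60 bases of the *Mir206* hairpin and 119 of the *Mir133b* hairpin lie in exons of *Gm28653*. Their mature sequences from RefSeq (GRCm38.p6) are shown here because transcription through the locus carries them, with the seed, bases 2 to 8, in capitals:
mmu-miR-206-3p, chr1:20679055-20679076: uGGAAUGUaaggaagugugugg
mmu-miR-133b-3p, chr1:20682834-20682855: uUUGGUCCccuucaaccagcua
The seeds differ, so the pair belongs to separate target families. Libraries were made from polyadenylated RNA and the rows of both microRNAs had 0 counts in all 32 libraries, so only the long transcript is measured here.

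*Gm28653* had the highest mean per length of the 8 genes at P1. P1 levels were 32.3, 38.5, 39.8 and 26.6 CPM in WT against 37.2, 24.6, 31.4 and 25.1 CPM in KO. WT then had 2.67, 3.64, 1.84 and 2.59 CPM at P14, 0.393, 0.443, 1.57 and 1.17 CPM at P21, and 0.292, 0.59, 0.332 and 0.507 CPM at P35. KO had 5.37, 5.24, 3.31 and 4.0 CPM at P14, with the third library below the highest of WT, 7.70, 15.2, 7.65 and 4.14 CPM at P21, and 9.83, 11.1, 14.1 and 17.2 CPM at P35. The ratio of means was 1.67 at P14, 9.72 at P21 and 30.4 at P35. Even so, KO at P35 remained at 0.381 of the WT mean of P1, with no overlap. Per length, the WT mean of P1 was 6.18 ± 1.10 RPKM and that of KO at P35 2.35 ± 0.590 RPKM.

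*Sprr1a* (chr3:92483952-92485895, minus strand) had the fewest counts of the 8 genes in WT after P1. At P1 it had 1.46, 1.40, 4.61 and 3.46 CPM in WT against 2.77, 1.90, 1.12 and 4.43 CPM in KO. In WT it had 0, 0, 1 and 0 counts at P14, 1, 0, 0 and 0 at P21, and 0 in all 4 libraries at P35. KO libraries had 0, 1, 18 and 1 counts at P14, 20, 33, 14 and 42 at P21, and 102, 74, 261 and 212 at P35, the last equal to 1.70, 1.09, 4.0 and 3.78 CPM. Against a floor of 3 counts per WT library, mean CPM in KO was at least 8.10-fold higher at P21 and at least 37.3-fold higher at P35. At P14 the genotypes overlapped, and 18 of the KO counts came from a single library, the third. The mean of KO at P35 was 0.967 of the WT mean of P1, and these libraries overlapped.

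Other SPRR genes were detected at P1 and hardly at all later. At P1 the 14 other SPRR genes all had counts, for example *Sprr1b*, its closest relative, with 8.84 ± 5.43 CPM in WT against 9.0 ± 5.79 CPM in KO. At P21 all 14 had 0 counts in all 8 libraries, and at P35 12 had 0 counts and the other 2, *Sprr2a2* and *Sprr2b*, at most 1. Of 10 further cornified envelope genes 1 could be tested at P21 and P35, *Krt10*, with log2 fold changes of 0.21 and -0.002. *Krt5* and *Krt14*, the keratins of basal skin cells, were at 291 and 150 CPM in KO at P1 and at 0.203 and 0.165 CPM at P35, against 0.188 and 0.194 CPM in WT.

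The sum of the 13 keratinocyte markers was still higher in KO at the late ages, 34.8 to 43.0 CPM against 8.04 to 11.7 CPM at P21 and 35.7 to 45.6 CPM against 10.5 to 12.3 CPM at P35. *Trp63* and *Sfn* made up most of this difference and were the 2 called of 3 tested. *Krt1*, *Krt15*, *Dsg3* and *Flg* had 0 counts in every KO library of P21, and *Krt5*, *Krt15*, *Dsg3*, *Flg* and *Ivl* in every WT library of P21. At P35 each of the 13 markers had counts in some library of both genotypes. *Trp63*, a p53 family transcription factor, rose from 5.83 ± 1.31 to 27.8 ± 2.78 CPM at P21 and from 4.44 ± 0.292 to 21.5 ± 1.49 CPM at P35. *Sfn*, the 14-3-3 sigma gene, rose from 1.42 ± 0.173 to 6.59 ± 0.747 CPM and from 1.44 ± 0.270 to 13.3 ± 2.04 CPM. At P14 the sum was 11.4 to 16.2 CPM in WT against 16.1 to 25.5 CPM for KO. At P1 it moved with *Fam83g* and *Sprr1a*, all being highest in the third library of WT (a sum of 7039 CPM) and lowest in the third of KO (1950 CPM) within their genotype. Its part in the P1 and P14 values was not tested.

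**Figure D3:**
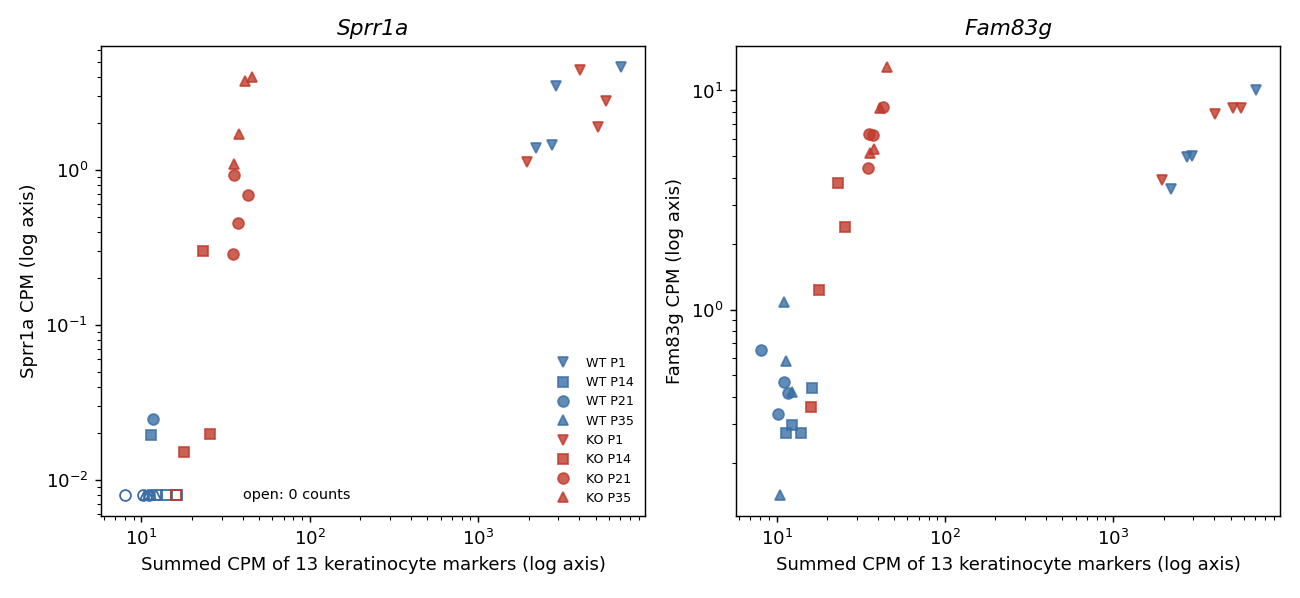
CPM of *Sprr1a* (left) and *Fam83g* (right) on the y axis against the summed CPM of 13 keratinocyte markers on the x axis (both log axes) in each of the 32 libraries, with shapes for ages, blue for WT, red for KO and open points for 0 counts. The KO libraries of P35 lie at 1.09 to 4.0 CPM of *Sprr1a* and 5.21 to 12.8 CPM of *Fam83g* with marker sums of 35.7 to 45.6 CPM, and those of both genotypes at P1 at 1.12 to 4.61 and 3.54 to 10.1 CPM with sums of 1950 to 7039 CPM.

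The region before the start of *Sprr1a* held letters of motifs bound by muscle and stress factors. The 300-base windows from 250 bases before to 50 after the RefSeq start (GRCm38.p6) were searched for the E-box CAGCTG bound by MYOD and myogenin, the AP-1 motif TGANTCA and the RUNX motif TGTGGT, on both strands. The 8 genes had 10 windows, 3 of them for *Tiam2*. *Sprr1a* held the E-box at 173 and 33 bases before the start and the AP-1 letters at 146 and 116 bases before it, shown in capitals in the 250 bases chr3:92485882-92486131, minus strand:
Sprr1a: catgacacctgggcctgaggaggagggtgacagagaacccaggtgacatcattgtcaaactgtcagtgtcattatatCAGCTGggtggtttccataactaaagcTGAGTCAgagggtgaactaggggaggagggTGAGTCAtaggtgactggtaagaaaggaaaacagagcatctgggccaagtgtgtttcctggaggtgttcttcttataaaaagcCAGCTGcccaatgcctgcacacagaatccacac
Of 32851 windows, 16.3% held the E-box at least 1 time, 7.81% the AP-1 motif and 16.8% the RUNX motif. Of the 10 windows of the 8 genes, 3 held the E-box, 1 the AP-1 motif and 1 the RUNX motif. Both the E-box and the AP-1 motif were held 2 or more times by 4 of all windows (0.0122%). That joint rule copies what *Sprr1a* held, so its rarity is no test of this promoter. *Prune2* held 1 E-box at 167 bases before its start, *Lincmd1* 1 at 15 bases after it, and 1 *Tiam2* window a RUNX motif at 168 bases before. No match was found in the windows of the other 4 genes, which says only that these letters are not there.

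P1 was free of the choice of genes, and *Tiam2* was the only gene with KO libraries wholly above WT, as were 3.85% of all genes. At that age none of the 8 genes was called (edgeR, adjusted *P*=0.124 to 0.960) by the rule that called 0.0442% of 18100 genes, and DESeq2 also called 0. *Ttc9*, *Tiam2* and *Prune2* had unadjusted *P*-values under 0.05, as did 1978 genes. *Tiam2*, with the smallest, had a log2 fold change of 0.29 (SE 0.0637), and the others ranged from -0.28 for *Ttc9* to 0.40 for *Prune2*. The median over the 8 was 0.13, against 0.011 over all genes.

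At P14 the KO level was the higher for all 7 genes that passed the filter on low counts, and *Sprr1a* did not pass it. Log2 fold changes were 2.59 for *Fam83g* (SE 0.637), 1.46 for *Rassf7* (SE 0.255), 1.34 for *Hsf2bp* (SE 0.263), 0.77 for *Tiam2* (SE 0.146), 0.74 for *Gm28653* (SE 0.230), 0.65 for *Ttc9* (SE 0.120) and 0.50 for *Prune2* (SE 0.161). Their median was 0.77, against 0.000 over all 15728 genes tested. All 7 had an unadjusted *P*-value under 0.05, as did 1072 genes in all, but none was called by edgeR (adjusted *P*=0.123 to 0.624), where 0.0254% of genes were called higher. *Hsf2bp*, *Rassf7*, *Ttc9* and *Tiam2* had KO libraries wholly above those of WT, which held for 3.28% of all genes.

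The call at P14 depended on the model. Same-numbered WT and KO libraries of P14 deviated together, with correlations of 0.19 to 0.59 in the 4 pairs, and once this number entered the fit as a block 6 of the 7 genes were called, where 0.426% of all genes were called higher. The labels do not say what same-numbered libraries share, and libraries of different numbers were not compared. The number is therefore not a known part of the design, and its use as a block is an alternative only. With this block the adjusted *P*-values were 0.000889 for *Ttc9*, 0.00277 for *Rassf7*, 0.00471 for *Gm28653*, 0.00550 for *Tiam2*, 0.00719 for *Hsf2bp* and 0.00822 for *Fam83g*, and *Prune2* was not called (0.0436). DESeq2 without the block called 5, *Rassf7*, *Tiam2*, *Ttc9*, *Hsf2bp* and *Fam83g* (adjusted *P*=0.000298 to 0.00264), where 0.248% of genes were called higher, and an edgeR fit of all 32 libraries called *Rassf7* and *Hsf2bp*, where 0.0323% were. The KO library was the higher in 4 of 4 pairs for each of the 7 genes and in 3 of 4 for *Sprr1a*. For *Hsf2bp*, *Rassf7*, *Ttc9* and *Tiam2* any pairing would give this, since their KO libraries all lay above those of WT. The share of all genes with such pairs was not counted, so the pairs add no support.

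**Figure D4:**
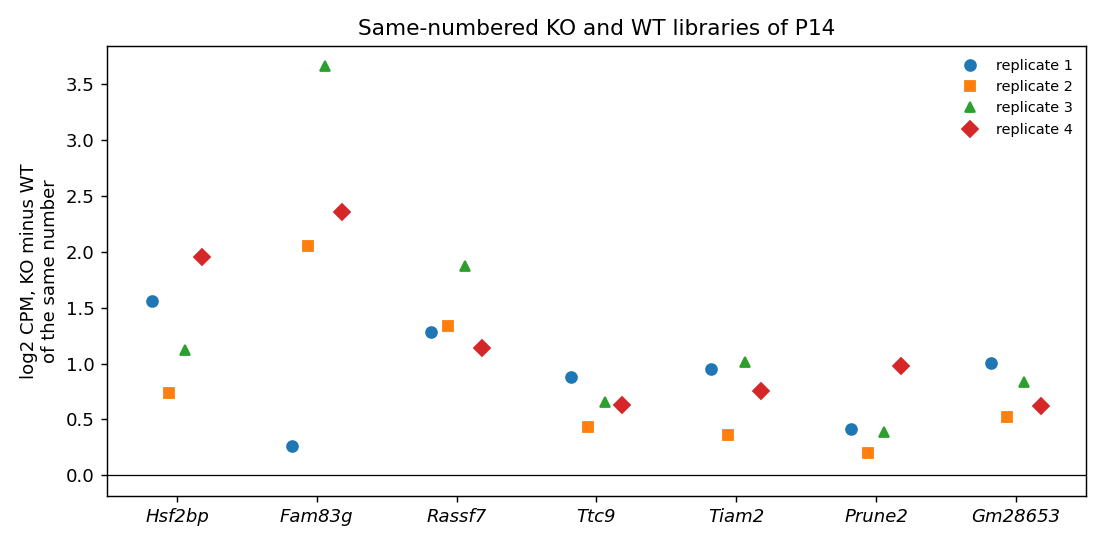
Difference in log2 CPM between the KO and the WT library of the same replicate number at P14 (y axis) for the 7 genes that passed the filter (x axis), with a symbol for each of the 4 pairs. All 28 points lie above 0, from 0.20 for *Prune2* in pair 2 to 3.66 for *Fam83g* in pair 3. For *Hsf2bp*, *Rassf7*, *Ttc9* and *Tiam2*, whose KO and WT libraries did not overlap, any pairing would place them there.

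From P1 to P14, ages that did not take part in the choice, 7 of the 8 genes fell past the threshold in WT, where 30.4% of 17435 genes fell. The P14 libraries of these 7 lay below all their P1 libraries, as did those of 39.9% of genes. Picking genes with KO far above WT at P21 and P35 favours genes low in older WT muscle. The choice is therefore not independent of such a fall in WT. *Rassf7* fell by 4.30 (SE 0.183, adjusted *P*=8.04e-08) and *Fam83g* fell by 4.22 (SE 0.375, adjusted *P*=4.85e-06). *Gm28653* fell by 3.68, *Hsf2bp* by 2.33, *Tiam2* by 1.69 and *Prune2* by 1.08 on the log2 scale. *Sprr1a* at P14 was at most 0.0203 of its P1 mean, with WT of P14 set to the floor of 3 counts per library. The summed keratinocyte markers went from 2220 to 7039 CPM at P1 to 11.4 to 16.2 CPM at P14 in WT. In KO these sums were 1950 to 5781 CPM and 16.1 to 25.5 CPM. The part of skin cells at P1 in the falls of *Fam83g* and *Sprr1a* in either genotype was not tested. *Ttc9* had a log2 fold change of -0.26 and was not called (adjusted *P*=0.0507), but it passed the threshold with library totals as the scale (-1.02, adjusted *P*=8.22e-05).

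In KO the same 7 genes fell, where 29.1% of 17719 genes fell and 36.6% had P14 libraries wholly below P1, by 2.98 for *Rassf7*, 2.75 for *Gm28653*, 1.91 for *Fam83g*, 1.21 for *Tiam2*, 1.11 for *Hsf2bp* and 0.98 for *Prune2*. *Sprr1a* was at 0.0329 of its P1 mean, a value that rests on the third library of P14 with 18 of 20 counts, and without it at most at 0.0201 of the P1 mean by the floor. *Fam83g* was at the edge of the threshold (adjusted *P*=0.00968), and its call was lost with the size factors of DESeq2 (-1.87, adjusted *P*=0.0108) and without KO libraries 1, 2 or 4 of P1 or 2 or 4 of P14 (-1.71 to -2.0, adjusted *P*=0.0172 to 0.0327), with log2 fold changes near that of all libraries. *Ttc9* rose by 0.66 (SE 0.124, adjusted *P*=0.000828), as did 23.5% of genes, on the TMM scale, but its value was -0.03 when libraries were scaled by their totals, a scaling that moves the all-gene median from -0.10 to -0.81 in KO and from -0.08 to -0.85 in WT. Relative to that median *Ttc9* was higher under both scalings. Its change was under 1.5-fold without the fourth KO library of P1 (0.58) or with at least 10 counts required in every library (0.57).

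The difference in KO effect between P14 and P1 was tested itself. It was above 0 for all 8 genes, with values of 2.33 for *Fam83g*, 1.34 for *Rassf7*, 1.23 for *Hsf2bp*, 0.95 for *Gm28653*, 0.94 for *Ttc9*, 0.50 for *Tiam2* and 0.11 for *Prune2*. None was called by edgeR (adjusted *P*=0.117 to 0.994), where 0.0161% of 18583 genes were, although 6 of 8 had an unadjusted *P*-value under 0.05, as did 1200 genes in all. DESeq2 called *Rassf7* (adjusted *P*=0.00901) and *Ttc9* (adjusted *P*=0.00991), where 0.0592% of genes were called.

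**Figure D5:**
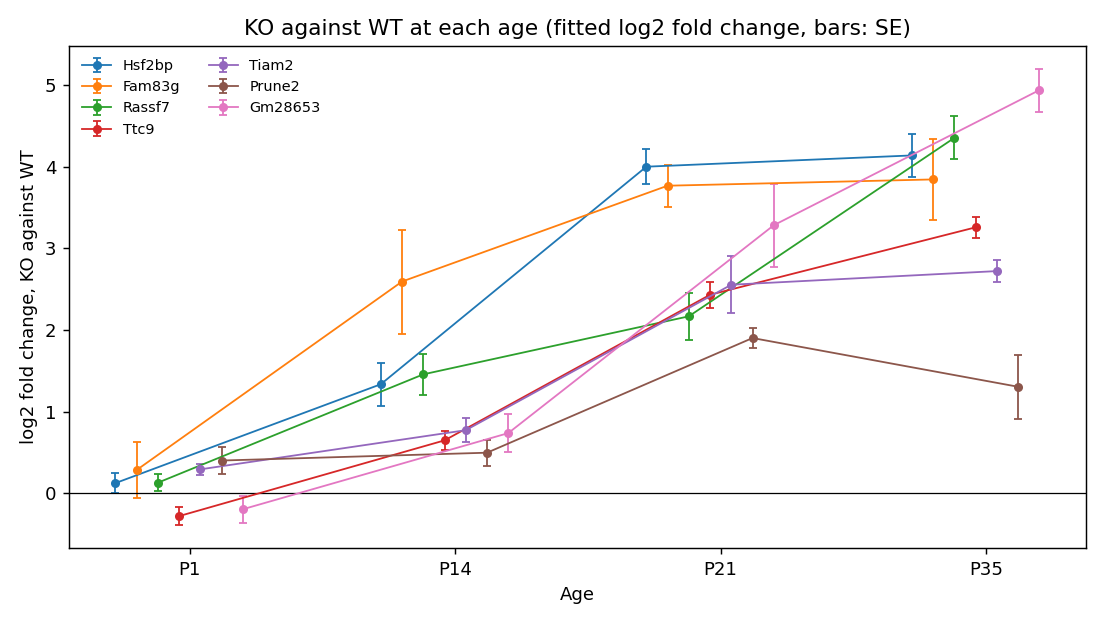
Fitted log2 fold change of KO against WT (y axis) with its SE at P1, P14, P21 and P35 (x axis) for 7 genes, leaving out *Sprr1a*, whose WT libraries are at or near 0 counts. The values lie between -0.28 and 0.40 at P1, 0.50 and 2.59 at P14, 1.90 and 4.0 at P21, and 1.30 and 4.94 at P35.

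The 7 genes other than *Sprr1a* had median log2 fold changes of 2.55 at P21 and 3.84 at P35. Their order differed between the ages. *Hsf2bp* and *Fam83g* led at P21 (4.0 and 3.77) and were close to these values at P35 (4.14 and 3.84), whereas *Rassf7* went from 2.17 to 4.35 and *Gm28653* from 3.28 to 4.94. *Prune2* was lowest at both (1.90 and 1.30). Scaling by library totals instead of TMM moved the median of all genes to 0.20 at P21 and 0.44 at P35 and the share of called genes that were higher from 68% to 90.9% and from 53% to 93%, and under it the 7 genes had values of 2.09 to 4.19 and 1.70 to 5.34.

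The same KO libraries tended to be the extreme ones. At P21 the second was highest for 6 of the 8 genes, all but *Rassf7* and *Sprr1a*, and the third was lowest for 6. At P35 the third was highest for 6, all but *Prune2* and *Gm28653*, and the first or the second was lowest for each of the 8. How often these libraries were extreme over all genes was not counted. The KO levels of these ages also chose the genes, so this is no trait of the 8. Between pairs of the 8 genes, Pearson's r of log2 CPM over the 32 libraries was 0.30 to 0.95 with a median of 0.78 over 28 pairs, a description in which the libraries share the age and genotype differences that chose the genes. *Hsf2bp* and *Tiam2* were the most alike.

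For each gene the 3 most alike genes of 18583 were taken by the same r. *Cttn*, a gene for the actin-binding protein cortactin, was nearest to *Rassf7* (r=0.98). *Lmna*, the nuclear lamin A/C gene, was nearest to *Gm28653* (r=0.97), and averaged 324 CPM in WT at P1, 95.7 in WT at P35 and 260 in KO at P35. *Ngef*, a guanine nucleotide exchange factor gene, was nearest to *Sprr1a* (r=0.97), followed by *Gm3776* (r=0.95) and *Lgals3*, the galectin-3 gene (r=0.94). *Il20rb* (r=0.95) was nearest to *Hsf2bp* and *Rrad*, a RAS-related GTPase gene known from muscle, to *Tiam2* (r=0.95), and *Rrad* averaged 1.63 CPM in WT against 107 CPM in KO at P35. *Nfkb2* (r=0.94) was nearest to *Ttc9*, *Plet1* (r=0.94) to *Fam83g* and *Trim8* (r=0.90) to *Prune2*.

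Since *Gm28653* lies at a microRNA locus known to respond to denervation and *Sprr1a* is known from injured neurons, genes of both responses were examined. Of 19 denervation response genes, 8 rose and 1 fell at P21 and 13 rose and 1 fell at P35, with medians of 1.23 and 1.57. Over all genes, 1.5% fell at P21 and 7.52% at P35 by this threshold, and the shares that rose are given above. *Runx1* rose from 3.05 ± 0.839 to 21.4 ± 5.67 CPM at P21 and from 3.12 ± 0.700 to 27.3 ± 6.93 CPM at P35 (log2 fold changes 2.82 and 3.15), and *Myog*, the myogenin gene, from 14.9 ± 5.05 to 37.7 ± 4.12 CPM and from 13.4 ± 4.45 to 67.5 ± 24.5 CPM (1.35 and 2.35). The receptor subunit genes *Chrnd* (1.77 and 2.92) and, at P35, *Chrng* (2.52) rose as well, as did embryonic myosin *Myh3* at P35 (4.16), and *Ncam1* at both ages (1.5 and 1.91). The gene that fell was *Dach2*, a repressor of *Myog* (-2.85 and -2.95).

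Of 9 injured axon regeneration genes, 8 were tested. *Sox11* and *Hspb1* rose at P21 (2.72 and 0.99), and *Atf3*, *Sox11*, *Basp1* and *Hspb1* at P35 (2.68, 5.12, 1.25 and 1.2), with list medians of 0.41 and 0.94. *Sox11*, a transcription factor gene of regenerating neurons, averaged 0.530 ± 0.198 CPM in WT at P35 and 18.2 ± 8.34 CPM in KO. *Gap43* and *Stmn2*, which are abundant in axons, had log2 fold changes of 0.69 and 0.02 at P35, and *Jun* -0.12, none of them called. The summed CPM of 6 neuron markers was 0.582 to 1.36 in KO and 0.356 to 0.998 in WT at P35. None of the genes of either list was called at P1 or P14. At P14, 8 of 19 denervation response genes had an unadjusted *P*-value under 0.05 (edgeR, lowest adjusted *P*=0.0822), with a list median of 0.30. For the injured axon genes these were 2 of 8, with a list median of 0.18. Over all 15728 genes tested, 1072 had such a *P*-value. At P1 it was 3 of 19 and 1 of 9 genes of the lists.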

How the data were processed

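RNA was measured in 32 libraries of mouse muscle, grouped by the genotype and age in the labels. The authors aligned paired-end reads of poly(A) libraries to GRCm38 with STAR and deposited unscaled expected counts per gene and library. The submitters' processing notes name STAR 2.6.1, RSEM 1.2.22 and DESeq2, whereas the methods name HTSeq. RSEM shares reads between similar genes, and 4.26% of values were not whole. The annotation release and the strand setting of the counting are not given in the sources used here.

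Rounded counts were tested with edgeR 4.0.16 in R 4.3.3 (filterByExpr, TMM, glmQLFit and glmQLFTest, Benjamini-Hochberg adjustment over all genes tested) within the groups compared, and over all 32 libraries for the difference in KO effect, where the adjusted *P*-value alone set the call. CPM used TMM over 18583 genes, RPKM the union exon length of GENCODE M21, and likeness log2 CPM with a prior count of 2. Folds against libraries at or near 0 used a floor of 3 counts per library. The fit was tested on simulated data. The 8 genes, 11 family lists (112 genes) and 13 marker lists (88 genes) were chosen with earlier results of these data known. Named by rule were the 8 genes, the 3 genes most like each, paralogues, overlapping genes, and the 3 smallest adjusted *P*-values per list. Other list and marker genes were named after their values were seen.

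Replicate numbers come from the labels. Deviations from group means correlated in all 4 same-numbered pairs at P14 (r=0.19 to 0.59), and not in all pairs at P1 (-0.32 to -0.002), P21 (-0.008 to 0.19) or P35 (-0.08 to 0.17). Alternatives were DESeq2 1.42.0, its size factors (RLE), library totals, no filter, at least 10 counts in every library, adjusted deviances, other libraries in the fit, the replicate block, and leaving out each library. Sequences came from RefSeq (GRCm38.p6).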

Additional observations from a re-analysis of the deposited data

Results flagged for a closer look

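Of 63 sets of 4 libraries of a gene, genotype and age, 8 held a library far from the other 3. Chance alone gives about 1 in 20 for normally distributed values, which CPM near 0 are not. *Fam83g* had a low library in KO at P1 (replicate 3, 3.92 CPM) and a high one in WT at P14 (replicate 4, 0.439 CPM). *Rassf7* was low in a WT library of P35 (replicate 1, 0.0973 CPM). *Ttc9* was high in WT at P1 (replicate 2, 28.9 CPM) and *Tiam2* in KO at P1 (replicate 2, 13.9 CPM). *Sprr1a* stood out in KO at P14, where replicate 3 had 0.301 CPM, and in WT at P14 (replicate 3, 0.0194 CPM) and P21 (replicate 1, 0.0246 CPM). The last 2 come from a single count each, which the rule always flags when the other 3 libraries have 0 counts.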

How the results depend on the processing

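At P21 and P35 the 8 genes kept a positive log2 fold change under every alternative that gave a value. Requiring at least 10 counts in every library left 5 of them called at P21 and 4 at P35, since it removes genes that are near 0 in WT. With library totals, all 32 libraries in 1 fit, the replicate block, or without KO replicate 2 of P35, all 8 were above the threshold at P35, *Prune2* included. The choice of the genes favoured such calls at P21 and P35, so these counts are no support for them. At P14 the number called was 0 in the main fit, 5 with DESeq2, 2 with all 32 libraries in 1 fit and 6 with the replicate block, and for the difference in effect DESeq2 called 2.

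The number of genes called in all was 8 at P1 and became 93 with DESeq2, 14 without the filter, 2 with all libraries in 1 fit and 2 with the replicate block. It was 5 at P14 and became 53 with DESeq2, 10 without the filter and 98 with the replicate block. It was 709 at P21 and 2496 at P35 and became 1157 and 4676 with library totals. For the difference in effect it was 3, and became 11 with DESeq2, 8 with only the 16 libraries of the 2 ages and 1 with the replicate block. Leaving out a library gave 0 to 15 genes at P1, 1 to 4 at P14 and 417 to 626 at P21, the lowest without WT replicate 1, where KO replicates 2 and 4 left out gave 424 and 468. It gave 6 to 8 of the 8 genes called between P14 and P1 in KO. The block changed no call on the 8 genes other than those at P14, that of *Fam83g* between P14 and P1 in KO (adjusted *P*=0.0243), and that of *Prune2* at P35, which passed with it.

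Signs changed for *Ttc9* between P14 and P1 in KO with library totals (-0.029), for *Sprr1a* at P1 without a library (-0.48 to 0.29), and for the *Prune2* difference in effect (-0.002 to 0.257). *Sprr1a* could be fitted at P14 without the filter and with all libraries in 1 fit, and was not called in either (adjusted *P*=0.80 and 0.966). Depth limits *Sprr1a* in WT, where 0 or 1 counts were read per library after P1, and *Rassf7* in WT at P35. The cause of the changes between tools was not tested.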

Other observations

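Per length, the order of the 8 genes differed between neonatal and late muscle. In WT at P1 *Gm28653* led with 6.18 ± 1.10 RPKM (SD, n=4), followed by *Ttc9* (5.21 ± 0.561), *Rassf7* (3.89 ± 0.432) and *Sprr1a* (3.39 ± 1.96), and the other 4 genes lay between 0.417 and 0.886 RPKM. In KO at P35 *Ttc9* led with 20.2 ± 3.18 RPKM, followed by *Sprr1a* (3.28 ± 1.81), *Gm28653* (2.35 ± 0.590) and *Hsf2bp* (1.95 ± 0.610), and the other 4 lay between 1.19 and 1.29 RPKM. By comparison with neonatal WT muscle, the KO means of P35 fell into 3 sets. *Ttc9*, *Prune2*, *Hsf2bp* and *Tiam2* stood above it without overlap, at 3.87, 3.09, 2.58 and 1.43 times the CPM, *Fam83g* and *Sprr1a* overlapped with it, and *Gm28653* and *Rassf7* stayed below it, at 0.381 and 0.317.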
